A study of Rattus norvegicus with 4 samples.

Results

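A set of 10 genes linked with lipid-laden macrophages were followed in the joint lining of rats: Spp1, Gpnmb, Trem2, Fabp5, Plin2, Lgals3, Cd9, Apoe, Olr1 and Msr1. They are 10 of the 17899 genes of the deposited rat table and were taken by gene symbol, each matching 1 row. The list was drawn up with earlier results of these libraries in view, so the members were in part selected on their difference between injected and PBS tissue; their values in that contrast, and the count of members called in it, are a description and support nothing. The material was 4 bulk RNA libraries of synovium from rats with osteoarthritis. AdMSC 1 came from a joint given human AdMSCs and SyMSC 1 from a joint given human SyMSCs, which the labels do not spell out and which commonly stand for mesenchymal stem cells of adipose tissue and of synovium. PBS 1 and PBS 2 came from joints given PBS, a salt buffer. Tissue that received cells was taken on the following day. The titles share a word between PBS 1 and AdMSC 1 (the Ad pair) and between PBS 2 and SyMSC 1 (the Sy pair). Those of PBS 1 and PBS 2 also hold the word mix, which the labels do not explain, so whether they are like replicates is not known. The sources used here do not state strain, age, sex, how osteoarthritis was induced or the time after PBS, nor that libraries came from separate animals, so the spread between libraries may be technical.

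Macrophages that take up fat, cholesterol and dead cells switch on a shared set of genes, described mostly in mouse and human adipose tissue, arteries, brain and injured organs. The surface receptor TREM2 senses lipids, lipoproteins and cell debris and signals through the adaptor TYROBP. Scavenger receptors bring in modified lipoproteins, binding proteins and droplet coat proteins hold the fatty acids inside the cell, apolipoprotein E carries cholesterol out, and osteopontin is secreted as an adhesive, cytokine-like glycoprotein. Several of these genes are also used outside macrophages, by fibroblasts, adipocytes, bone cells and others.

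Values are TPM, shares of each library's rat transcripts corrected for gene length, so levels of different genes can be set side by side. Read depth is not kept in TPM and is unknown here. Between 12582 and 13155 genes reached 1 TPM in a library. Of 13 general macrophage markers, 12 rose after injection in limma (median log2 change 1.61), none was at 0, and their summed level was 32224 and 41538 TPM in the injected libraries against 11598 and 12795 TPM with PBS. Fibroblast markers were also abundant in every library (11684 to 39364 TPM in sum).

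The 10 genes together made up 3.93% of all rat TPM in AdMSC 1 and 3.92% in SyMSC 1, against 1.15% in PBS 1 and 1.44% in PBS 2. Their make-up differed as well. Apoe supplied 78.4% and 82.3% of the summed level in PBS 1 and PBS 2, but 48.9% in AdMSC 1 and 59.4% in SyMSC 1. Spp1 supplied 1.79% and 1.34% with PBS, and 25.5% and 16.3% in AdMSC 1 and SyMSC 1. The order of the levels was the same in both injected libraries, from Apoe and Spp1 at the top through Gpnmb, Lgals3, Fabp5, Plin2, Trem2, Msr1 and Cd9 to Olr1. With PBS, Apoe and Lgals3 led. Gpnmb came before Cd9 in PBS 1 and after it in PBS 2, and Spp1 likewise changed places with Trem2, so these neighbours did not differ beyond their spread.

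**Figure D1:**
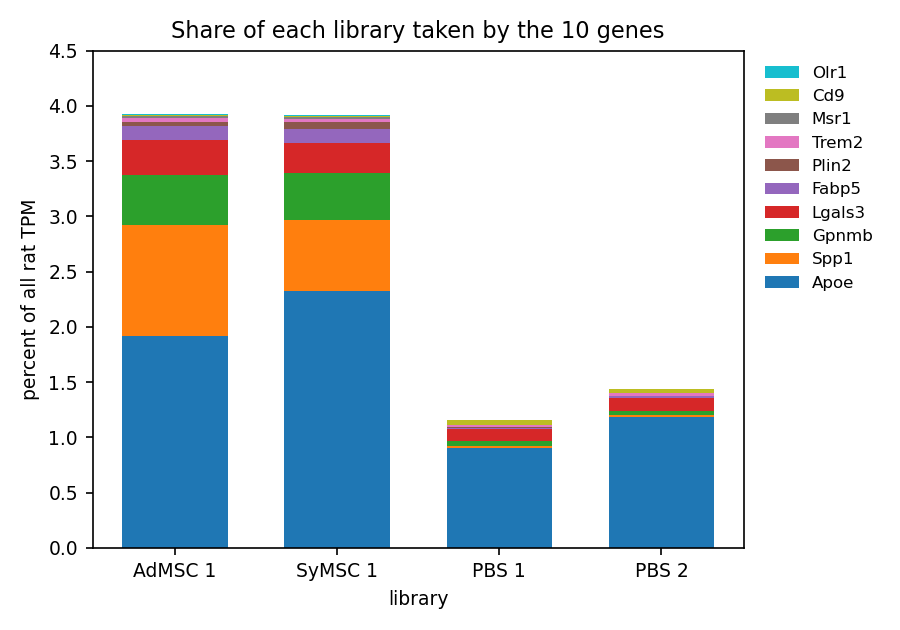
Share of all rat TPM taken by each of the 10 genes (stacked colours, percent, linear axis from 0) in the 4 libraries, 1 bar per library with no error bar. The injected bars reach 3.93% and 3.92% and the PBS bars 1.15% and 1.44%, and the orange Spp1 segment is wide in the injected bars (25.5% and 16.3% of the bar) and a thin line in the PBS bars (1.79% and 1.34%).

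Among the secreted products, Spp1 (gene ID 25353), which encodes osteopontin, differed most. It stood at 10022 TPM in AdMSC 1 and 6402 TPM in SyMSC 1, against 207 TPM in PBS 1 and 193 TPM in PBS 2. Both injected libraries lay far above both PBS libraries, and Spp1 went from the 639th and 686th most abundant gene with PBS to the 5th in AdMSC 1 and the 12th in SyMSC 1. The ratio of the means was 41.1, and the log2 change, here always on log2(TPM + 1), was 5.32 with an SE of 0.22. Lgals3 (gene ID 83781), the carbohydrate-binding lectin galectin-3, which marks damaged lysosomes and is secreted by activated macrophages, stood at 3121, 2704, 1093 and 1196 TPM in AdMSC 1, SyMSC 1, PBS 1 and PBS 2 (log2 change 1.34, SE 0.14). Apoe (gene ID 25728), the apolipoprotein that accepts cholesterol leaving the cell, stood at 19209, 23281, 9038 and 11843 TPM in the same order (log2 change 1.03, SE 0.18). Lgals3 and Apoe were abundant in every library and were 2.55 and 2.03 times their PBS means after injection, with no overlap between the groups. Apoe was the second most abundant gene in AdMSC 1, SyMSC 1 and PBS 2 and the 6th in PBS 1.

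Among the surface proteins, Gpnmb (gene ID 113955), a glycoprotein of lysosome-rich and lipid-laden macrophages, stood at 4565 TPM in AdMSC 1 and 4273 TPM in SyMSC 1, against 424 and 367 TPM in PBS 1 and PBS 2. The injected libraries were close to each other and 11.2 times the PBS mean (log2 change 3.48, SE 0.13). Msr1 (gene ID 498638), the class A scavenger receptor for modified lipoproteins, stood at 174 and 145 TPM in AdMSC 1 and SyMSC 1 and at 25.6 and 28.7 TPM with PBS (log2 change 2.51, SE 0.15). Olr1 (gene ID 140914), the lectin-like receptor for oxidised lipoproteins, which is distinct from the olfactory receptors of similar symbol, had the lowest level of the 10. It stood at 36.4 and 41.1 TPM in AdMSC 1 and SyMSC 1 and at 4.88 and 4.38 TPM with PBS (log2 change 2.82, SE 0.14). Both scavenger receptors were thus low with PBS and higher in each injected library. Trem2 (gene ID 301227) was the rising member with the smallest change, at 347 and 294 TPM in AdMSC 1 and SyMSC 1 and 167 and 203 TPM in PBS 1 and PBS 2 (log2 change 0.79, SE 0.16). Its groups did not overlap, but SyMSC 1 was only 1.45 times PBS 2, while AdMSC 1 was 2.08 times PBS 1. Cd9 (gene ID 24936), a tetraspanin that organises adhesion and fusion complexes in the membrane of many cell types, went the other way. It stood at 135 and 127 TPM in AdMSC 1 and SyMSC 1 and at 402 and 387 TPM in PBS 1 and PBS 2, so the PBS mean was 3.01 times the injected mean (log2 change -1.58, SE 0.12).

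Inside the cell, Fabp5 (gene ID 140868), a carrier of fatty acids in the cytosol, stood at 1300 and 1287 TPM in AdMSC 1 and SyMSC 1 and at 121 and 117 TPM in PBS 1 and PBS 2 (log2 change 3.43, SE 0.12). No other member had injected libraries so close to each other relative to the change. Plin2 (gene ID 298199), which coats the surface of lipid droplets in most cells, stood at 352 TPM in AdMSC 1 and 607 TPM in SyMSC 1, against 52.3 and 61.0 TPM in PBS 1 and PBS 2 (log2 change 3.01, SE 0.27). Both injected libraries were above both PBS libraries, and SyMSC 1 was the higher of the injected ones.

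**Figure D2:**
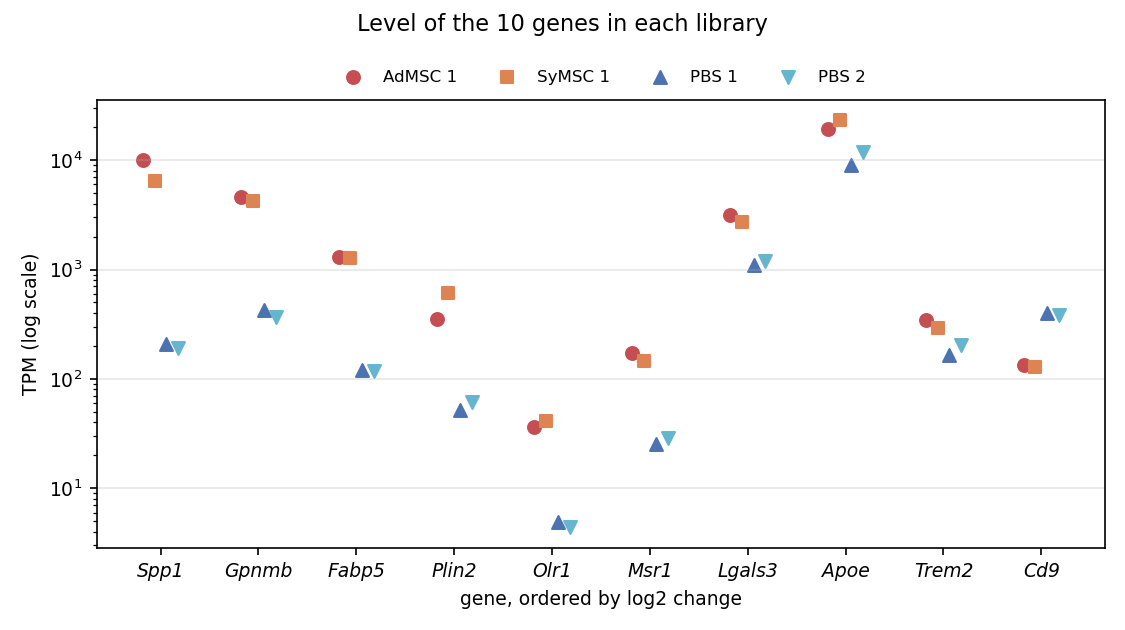
Level of each of the 10 genes in every library (points, TPM on a log axis), ordered from the largest log2 change to the smallest, with 1 point per library. For 9 genes both injected points lie above both PBS points, from Spp1 (10022 and 6402 against 207 and 193 TPM) to Trem2 (347 and 294 against 167 and 203 TPM), and for Cd9 both lie below (135 and 127 against 402 and 387 TPM).

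All 10 members passed the filter of at least 1 TPM in at least 2 libraries, and each would have passed on its PBS libraries alone. In limma, 10 of 10 were called at an adjusted p under 0.05, 9 higher and 1 lower, where 48.4% of the 13371 genes tested were called (23.7% higher and 24.7% lower). Nothing is read from that count, since the list was chosen with this contrast known. Both injected libraries lay above both PBS libraries in 9 members and below them in 1, where the shares over all tested genes were 39.5% and 39.4%. In each of the 10 members the gap between the groups was wider than the largest difference within a group on the log2 scale. The narrowest was Trem2, with a gap of 0.53 against a difference of 0.28 between the PBS libraries. The share of all tested genes with such a gap was not computed, so nothing is read from this count either. The median log2 change of the members was 2.66, beside 0.00087 over all tested genes. In bulk tissue, more cells of a type and more RNA per cell cannot be told apart.

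The promoter windows of the members with the 4 largest rises among those with an entry in the RefSeq promoter table are shown because these genes were all higher in both injected libraries. The table (build GRCr8) held a window for 7 members, Spp1, Gpnmb, Trem2, Plin2, Cd9, Apoe and Olr1, and none was used for Fabp5, Lgals3 and Msr1. Each sequence is the 250 bases before an annotated start, 5′ to 3′ on the gene's strand, and capitals mark matches to the motifs named after them. The Spp1 window is chr14:5619805-5620054 on the minus strand, that of Gpnmb chr4:79340878-79341127 on the plus strand, that of Plin2 chr5:106229019-106229268 on the minus strand and that of Olr1 chr4:164634548-164634797 on the minus strand.
Spp1: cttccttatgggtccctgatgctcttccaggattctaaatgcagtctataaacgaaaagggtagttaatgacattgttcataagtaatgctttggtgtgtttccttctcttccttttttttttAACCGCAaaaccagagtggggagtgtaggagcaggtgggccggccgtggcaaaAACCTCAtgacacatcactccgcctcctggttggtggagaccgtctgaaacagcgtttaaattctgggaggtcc
Gpnmb: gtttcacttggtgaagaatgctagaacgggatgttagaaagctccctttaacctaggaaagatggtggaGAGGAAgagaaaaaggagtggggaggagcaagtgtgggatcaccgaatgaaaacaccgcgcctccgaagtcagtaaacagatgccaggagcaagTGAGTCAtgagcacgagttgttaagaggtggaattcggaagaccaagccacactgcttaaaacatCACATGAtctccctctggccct
Plin2: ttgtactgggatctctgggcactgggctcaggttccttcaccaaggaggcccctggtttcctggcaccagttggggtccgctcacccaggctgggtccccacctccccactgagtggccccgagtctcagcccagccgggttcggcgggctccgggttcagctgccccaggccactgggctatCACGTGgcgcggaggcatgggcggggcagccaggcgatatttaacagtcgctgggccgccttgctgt
Olr1: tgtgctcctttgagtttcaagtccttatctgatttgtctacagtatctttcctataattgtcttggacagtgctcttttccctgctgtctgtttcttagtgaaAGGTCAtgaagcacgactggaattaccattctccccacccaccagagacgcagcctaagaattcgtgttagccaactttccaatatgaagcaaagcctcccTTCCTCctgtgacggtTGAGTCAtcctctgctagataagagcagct

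A set of 6 short motifs of factors active in macrophages and in lipid or lysosome control were searched on both strands. A member is named if any of its windows held a match, and Apoe and Plin2 have more than 1 window. The percentages are per window, so the members named and the percentages are not like measures. TGANTCA, the AP-1 motif, was found in Gpnmb (87 to 81 bases before the start) and Olr1 (30 to 24 bases before it) and in 6.34% of 33469 windows. CACGTG, the E-box read by basic helix-loop-helix factors such as TFEB, was found in Plin2 (67 to 62 bases before the start) and in 5.59% of windows. TCATGTG, the M-box of MITF and its relatives, was found in Gpnmb, on the opposite strand (22 to 16 bases before the start), in 1 of the 3 Apoe windows and in 3.07% of all windows. AACCNCA, the RUNX motif, occurred in the Spp1 window at 127 to 121 and at 74 to 68 bases before the start, and in 12.9% of windows. AGGTCA, a nuclear receptor half-site, was found in Olr1 and Trem2 and in 14.1% of windows. GAGGAA, a PU.1 core, was found in Gpnmb, Olr1, Trem2, Cd9 and Apoe and in 23.3% of windows. The Cd9 window, from the member that was lower after injection, thus held a PU.1 core match and none of the other motifs. Plin2 has a further window, which held no match to any of the 6. These motifs do not overlap each other in the windows shown. A match describes letters and does not show that a factor binds there.

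Each injected library was also set against the PBS library of its own title pair, 1 against 1, with no replicate and no test. A ratio of TPM + 1 of at least 2 either way, with at least 5 TPM in the higher library, was reached by 10 members in the Ad pair (9 higher, 1 lower), beside 23.3% of 10833 genes. In the Sy pair it was reached by 8 members (7 higher, 1 lower), beside 27.9% of 10821 genes. The 2 that did not reach it in the Sy pair were Trem2, at 1.45, and Apoe, at 1.97. Every member had the same direction in both pairs. Spp1 was 48.3 times PBS 1 in AdMSC 1 and 33.1 times PBS 2 in SyMSC 1. Gpnmb and Fabp5 had near-equal log2 ratios in the Ad and Sy pairs, 3.42 and 3.54 for Gpnmb and 3.42 and 3.45 for Fabp5. Cd9 did too, at -1.57 and -1.59.

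The 2 cell sources were compared directly between SyMSC 1 and AdMSC 1. Spp1 was lower in SyMSC 1 (6402 against 10022 TPM, log2 difference -0.65, SE 0.18), while Plin2 was higher there (607 against 352 TPM, log2 difference 0.79, SE 0.18). The log2 differences of the other 8 members lay between -0.26 (Msr1) and 0.28 (Apoe). Of the 10, 3 were higher in SyMSC 1 (Plin2, Apoe and Olr1) and 7 lower. For 6 members the difference between the injected libraries was larger than that between the PBS libraries. The matching shares of all tested genes were not computed, so nothing is read from this count or from the 3 higher and 7 lower. For the members, the median absolute log2 difference was 0.224 between the injected libraries and 0.144 between the PBS libraries. Over all genes compared in each pair, that median was also larger between the injected libraries, at 0.182 against 0.154. No member reached a ratio of 2 in either direction, beside 2.18% of 10100 genes, and none did between PBS 2 and PBS 1, beside 2.18% of 10423 genes. With the 3 groups fitted together in limma, 0% of the 13371 genes was called between SyMSC and AdMSC. At an unadjusted p under 0.05 there were 861 genes (6.44%), among them 2 members, Spp1 and Plin2. That fit has 1 residual degree of freedom, from the PBS libraries, and assumes that each lone injected library varies as they do, so it does not show that the sources act alike. Set against the PBS library of its own pair, the Plin2 difference between sources was 0.57 and the Spp1 difference -0.55. For Trem2 it was -0.52, larger than the -0.24 between the injected libraries themselves, since PBS 2 was above PBS 1.

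**Figure D3:**
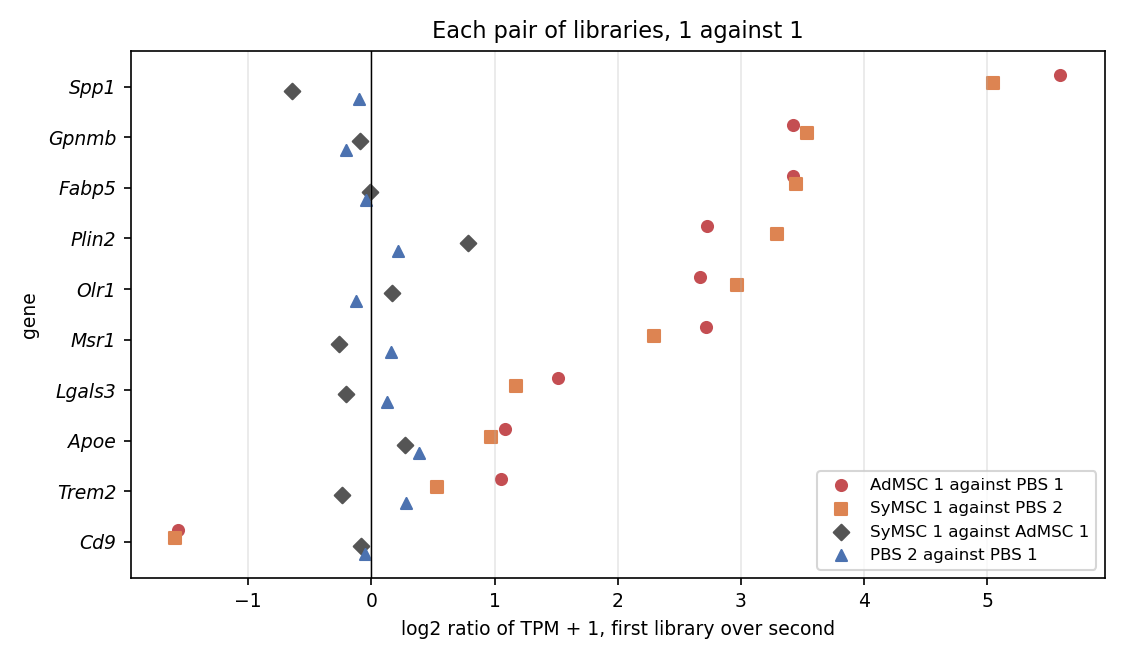
Log2 ratio of TPM + 1 for each of the 10 genes in 4 pairs of libraries (1 point per pair, no error bar). Red and orange points (each injected library against the PBS library of its title pair) lie at 1.05 or more on either side of 0 except for Apoe and Trem2 in the Sy pair (0.98 and 0.53), while grey diamonds (SyMSC 1 against AdMSC 1) stay between -0.65 for Spp1 and 0.79 for Plin2. Blue triangles compare PBS 2 with PBS 1.

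Macrophage markers as a whole were higher after injection, so the members were read against them. General macrophage markers had a median log2 change of 1.61 and a largest change of 2.94 (Itgam, an integrin of myeloid cells). The marker Adgre1 was not called (-0.05, limma adjusted p = 0.81). Myeloid genes such as Itgam are not confined to macrophages, and neutrophil markers had a median log2 change of 2.83, with 5 of 11 called higher. That was 45.5%, beside 23.7% of all tested genes called higher. Called or not, 9 of the 11 had a log2 change above 1. Camp (-0.38) and Ngp (-0.28) did not. Their log2 ratios were -2.37 and -2.82 in the Ad pair and 1.61 and 2.25 in the Sy pair. The part of neutrophils in the marker values was not tested. The median of the members was 1.05 above that of the markers, which the choice of members by their difference favours. Nothing is read from it, and the values of members beside markers are a description. Of the members, 6 lay above the marker median and 4 below it. Spp1, Gpnmb, Fabp5 and, narrowly, Plin2 lay above every marker, which the same choice favours. Plin2 (3.01, SE 0.27) and Itgam (2.94, SE 0.13) differed by less than their errors, and Itgam was the higher in the Ad pair (2.83 against 2.73). Relative to the geometric mean of the markers in the same library, Spp1 was 3.71 log2 units higher after injection, Gpnmb 1.87, Fabp5 1.82, Plin2 1.40, Olr1 1.21 and Msr1 0.90. Lgals3 (-0.27), Apoe (-0.58), Trem2 (-0.82) and Cd9 (-3.19) were lower relative to the markers. Spp1 transcripts outnumbered those of the lysosomal macrophage marker Cd68 by 6.67 to 1 in AdMSC 1 and 4.56 to 1 in SyMSC 1, and were at 0.502 and 0.417 of the Cd68 level in PBS 1 and PBS 2. Gpnmb stood at 3.04 and 3.05 times Cd68 after injection and at 1.03 and 0.795 times with PBS. Trem2 moved the other way against Cd68, from 0.405 and 0.439 with PBS to 0.231 and 0.209 after injection. Within the list, then, the members differed in how they stood to macrophage markers as a group.

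**Figure D4:**
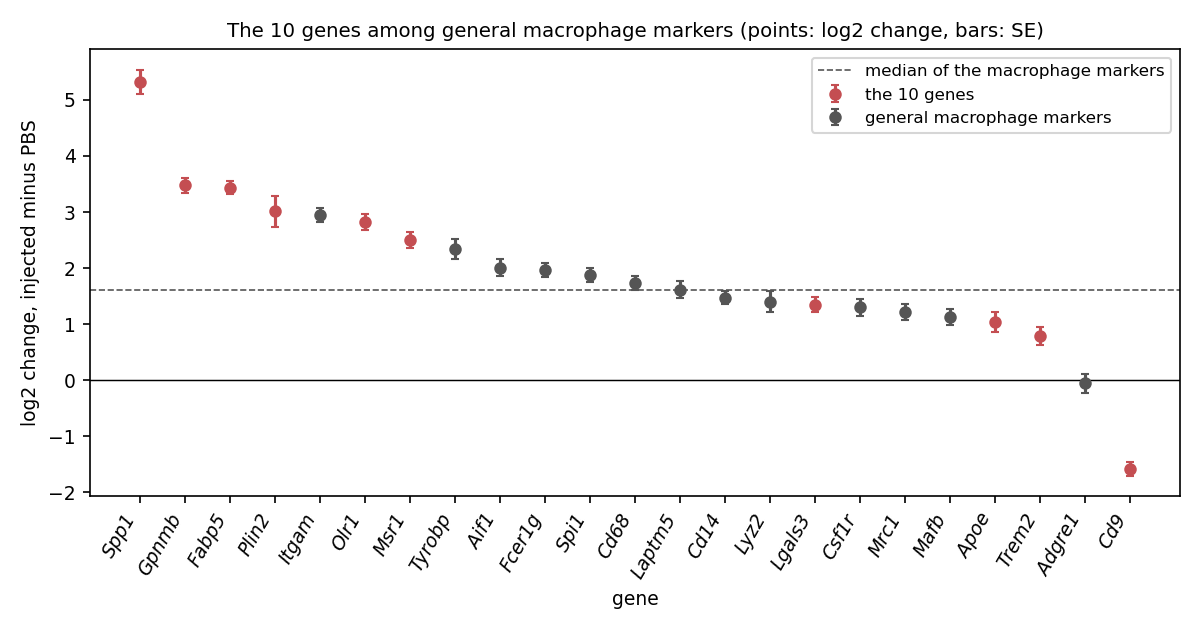
Log2 change between injected (n = 2) and PBS (n = 2) libraries for the 10 genes (red) and 13 general macrophage markers (grey), with bars of 1 SE and a dashed line at the marker median. Spp1, Gpnmb and Fabp5 lie above every marker, and Plin2 and Itgam lie within their bars of each other. Trem2 (0.79), Apoe (1.03) and Lgals3 (1.34) lie under the line at 1.61. The 10 genes were chosen with this contrast known, so their places above the markers are a description.

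The other genes of the lipid-associated programme, 25 that are not members, divided: 12 rose, 7 fell and 6 did not pass, so 76.0% were called beside 48.4% of all genes, with a median log2 change of 0.40. The pattern recognition receptor gene Clec7a (log2 change 3.65, SE 0.25, limma adjusted p = 0.00045) and the lysosomal protease gene Ctsz (2.43, SE 0.13, adjusted p = 0.000239) rose. Itgax was also called higher (2.64, SE 0.59, limma adjusted p = 0.0316), but not with the title pair as a block (adjusted p = 0.0585). Those that fell included the lipoprotein lipase gene Lpl, the fatty acid transporter gene Cd36 and the fatty acid binding gene Fabp4. The calls of Lpl, Cd36 and Fabp4 each ended without AdMSC 1 (limma adjusted p = 0.117, 0.12 and 0.243) or without SyMSC 1 (0.137, 0.0718 and 0.217), and that of Lpl also without PBS 2 (0.149). Cd36, Lpl and Fabp4 are also genes of adipocytes and endothelial cells.

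Around Trem2, 11 of 13 genes for partners, sheddases and related receptors rose (84.6%, beside 48.4% of all genes called). None fell and 2 did not pass, with a median log2 change of 1.81. Of the sheddase genes, Adam10 rose (0.68) and Adam17 was not called (0.14). Without PBS 1 the Adam10 call ended (log2 change 0.56). The adaptor gene Tyrobp rose from 767 and 881 TPM to 3556 and 4848 TPM (a log2 change of 2.34 ± 0.18 (SE), adjusted p = 0.000466 in limma), the kinase gene Syk by 2.39 (adjusted p = 0.000499) and the related receptor gene Trem1, which amplifies inflammation in neutrophils and monocytes, by 2.88 (adjusted p = 0.000187). Ms4a6a rose by 2.51 (limma adjusted p = 0.000239). Trem2 itself changed by 0.79. There were 4.60 and 4.35 Tyrobp transcripts per Trem2 transcript in PBS 1 and PBS 2, and 10.2 and 16.5 in AdMSC 1 and SyMSC 1. The level of Trem2 was 6.55 and 7.76 times that of Trem1 with PBS and 1.88 and 1.41 times after injection.

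For Spp1, receptor and protease genes were mixed: of 12 tested, 5 rose, 3 fell and 4 did not pass. Thus 66.7% were called, beside 48.4% of all tested genes. Mmp3, a matrix metalloproteinase that cleaves osteopontin, rose from 594 and 550 TPM to 2605 and 2608 TPM (a log2 change of 2.19 ± 0.12 (SE), adjusted p = 0.000246 in limma). The integrin genes Itga4 (1.62, adjusted p = 0.00106) and Itgb3 (1.5, adjusted p = 0.00825) rose, and Itga8 fell (-1.61, adjusted p = 0.0031). Cd44, a further osteopontin receptor, was called higher, but Spp1 stood at 1.99 and 2.39 times the Cd44 level with PBS and at 62.1 and 37.6 times after injection.

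Relatives of Fabp5 and Plin2 moved in both directions. Fabp4, the binding protein of adipocytes, was at 181 and 206 TPM in AdMSC 1 and SyMSC 1 and at 469 and 1198 TPM in PBS 1 and PBS 2. There were thus 7.18 and 6.24 Fabp5 transcripts per Fabp4 transcript after injection and 0.257 and 0.0975 with PBS. Among perilipins and genes of droplet turnover, 3 of 18 rose, 5 fell and 10 did not pass, so 44.4% were called, near the 48.4% of all tested genes. Without AdMSC 1, and likewise without SyMSC 1, 5 of the 18 were called, and the falls of Plin4, Pnpla3 and Lipe were then not called. Soat1, which esterifies cholesterol for storage (log2 change 2.87, SE 0.15, limma adjusted p = 0.000239), and Hilpda, a droplet protein induced by low oxygen that inhibits lipolysis (2.39, SE 0.21, adjusted p = 0.000639), rose beside Plin2. Of those that did not pass, G0s2 (4.48, SE 1.33, limma adjusted p = 0.0884) and Dgat2 (2.38, SE 0.70, adjusted p = 0.0699) were higher. Plin1 (-1.47) and Cidec (-1.58) did not pass either and were lower. Cidea, a droplet fusion protein of fat cells, fell (-1.88, adjusted p = 0.00349), and so did Plin4 (-2.72, adjusted p = 0.00561). Without AdMSC 1 the Plin4 log2 change was -2.58 (adjusted p = 0.0663) and without SyMSC 1 it was -2.86 (adjusted p = 0.0543), so the direction stayed and the call did not.

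Lgals3 was set beside 6 other galectin genes that were tested, of which none rose and 2 fell (1 without AdMSC 1). With all libraries, 33.3% of these galectin genes were called, beside 48.4% of all tested genes. Lgals1 fell from 3695 and 3613 TPM to 1756 and 1164 TPM (a log2 change of -1.35 ± 0.21 (SE), adjusted p = 0.0032 in limma). Lgals1 was the more abundant galectin with PBS, at 3.38 and 3.02 times Lgals3, and Lgals3 the more abundant after injection, at 1.78 and 2.32 times Lgals1. Tetraspanin genes other than Cd9 moved both ways, with 4 of 14 higher and 6 lower (71.4% called, beside 48.4% of all tested genes). Cd81, a partner of Cd9 in membrane complexes, fell by 1.22 on the log2 scale (adjusted p = 0.0012) and Tspan9 by 1.18 (adjusted p = 0.00152). The leukocyte tetraspanin genes Cd53 (2.60, adjusted p = 0.000239) and Cd37 (1.87, adjusted p = 0.000991) rose.

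Scavenger receptor genes other than Msr1 and Olr1 moved both ways: of 13 tested, 3 rose, 7 fell and 3 were not called. Thus 76.9% were called, beside 48.4% of all tested genes. Scara3 (-2.05, limma adjusted p = 0.000297) and the lipoprotein receptor gene Scarb1 (-1.49, adjusted p = 0.00309) fell, and Clec7a and Cd68 (1.73, adjusted p = 0.000413) rose. Around Apoe, 7 of 18 genes for apolipoproteins, their receptors and cholesterol efflux rose, 4 fell and 7 did not pass, and without PBS 2 there were 7 calls in place of 11. With all libraries, 61.1% were called, beside 48.4% of all tested genes. The largest called changes were those of Apol3 (-2.05, limma adjusted p = 0.000488) and Apobr (1.94, adjusted p = 0.0215). The cholesterol exporter genes Abca1 (log2 change 0.85) and Abcg1 (0.89) were among those that rose. The plasma cholesterol esterifying enzyme gene Lcat (-1.85, adjusted p = 0.000563) and the cholesterol hydroxylase gene Cyp27a1 (-1.85, adjusted p = 0.000514) fell. Of 14 genes for lipid and lysosome transcription factors, 7 rose and 2 fell (64.3% called, beside 48.4% of all tested genes). Tfec, a factor of the MITF family found in macrophages, rose (1.88, adjusted p = 0.000521), as did Rxra (1.48, adjusted p = 0.000729), and the fat cell regulator gene Pparg fell from 18.8 and 27.7 TPM to 4.72 and 3.92 TPM (-2.17, adjusted p = 0.000883). Mitf itself was not called (log2 change -0.10).

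**Figure D5:**
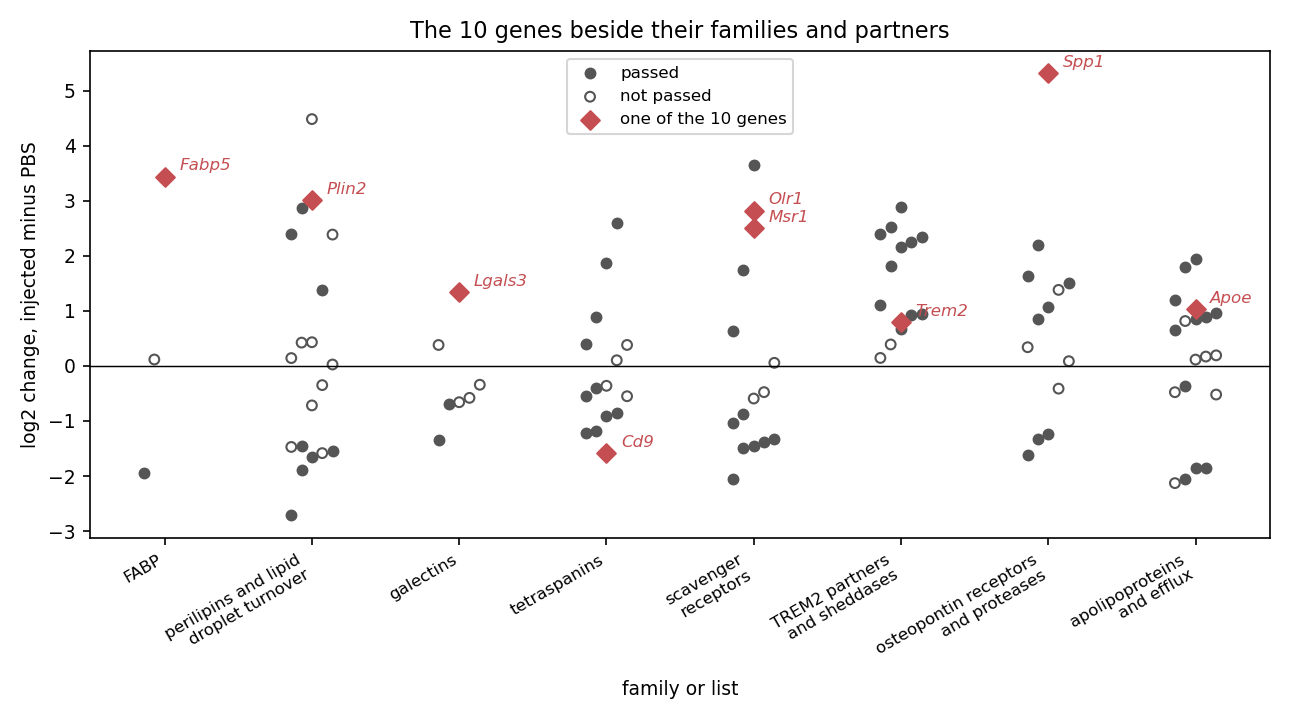
Log2 change between injected and PBS libraries (y axis) of the 10 genes except Gpnmb, which is not drawn (red diamonds), each beside the tested genes of its family or partner list (grey). Filled circles passed limma at an adjusted p under 0.05 and open circles did not. Fabp5 (3.43) and Lgals3 (1.34) lie above every relative shown, Cd9 (-1.58) lies under every other tetraspanin, and Trem2 (0.79) lies low among its partners, sheddases and related receptors.

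Markers of other cells that can use these genes moved as well, and their part in the members' values was not tested. Over all tested genes, 48.4% were called, 23.7% higher and 24.7% lower. Fibroblast markers fell in 9 of 12 cases, from 39364 and 32156 TPM in sum with PBS to 17169 and 11684 TPM in AdMSC 1 and SyMSC 1, and endothelial markers in 10 of 11. Cd9 fell alongside these groups, which use it as well. Of 8 adipocyte markers, which bear on Plin2 and Fabp5, 2 were called lower (Lipe and Fabp4) and none higher. That share, 25%, is near the 24.7% of all tested genes called lower. The sums were 463 and 595 TPM after injection and 822 and 2544 TPM with PBS. No adipocyte marker was called without AdMSC 1, without SyMSC 1 or with 3 groups, and 8 were called without PBS 1 and 4 with the title pair as a block. Chondrocyte and bone cell markers, which bear on Spp1, fell in 6 of 8 cases and rose in none, with sums of 107 and 66.6 TPM after injection and 643 and 700 TPM with PBS. Osteoclast markers, from cells that make much osteopontin in bone, rose in 4 of 6 cases and fell in 1. Their sums were 311 and 322 TPM after injection and 683 and 598 TPM with PBS. Most of the PBS sums was Ctsk, at 572 and 477 TPM with PBS and 95.8 and 60.2 TPM after injection. Apart from Ctsk, each tested osteoclast marker was higher in both injected libraries than in both PBS libraries. Acp5 was among these but was not called (log2 change 0.32, limma adjusted p = 0.117). Ctsk, the collagen-degrading cathepsin of osteoclasts and fibroblasts, fell (-2.77, limma adjusted p = 0.000701), the immune receptor gene Oscar rose (5.0, adjusted p = 0.000182), as did Itgb3 (1.5), Tnfrsf11a, the RANKL receptor gene (0.98), and Nfatc1, a transcription factor gene of osteoclasts (0.67), and the fusion gene Dcstamp was at 0 in both PBS libraries and under 1 TPM in each injected one. Neutrophil markers rose in 5 of 11 cases, with sums of 2437 and 4541 TPM after injection and 396 and 152 TPM with PBS, and without SyMSC 1 the count of calls was 2.

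Over the 4 libraries, profiles were compared by the root mean square distance between log2 values centred on each gene's own mean. The smallest distance between members was 0.069, between Gpnmb and Fabp5. Spp1 had no close fellow among the members, with 0.94 to Gpnmb as the smallest distance. Among 10213 other genes with a mean of at least 5 TPM, Oscar lay nearest to Spp1 (0.44; 65.4, 85.1, 1.03 and 1.74 TPM in AdMSC 1, SyMSC 1, PBS 1 and PBS 2). Pla2g7, a lipoprotein-associated phospholipase, lay at 0.52 (161, 233, 6.90 and 5.92 TPM). The other 3 of the 5 nearest to Spp1 carried locus identifiers, and 2 of them were listed at 0 in both PBS libraries. Nearest to Gpnmb were Serinc2 (0.10), Tgm1 (0.11), the glucose transporter gene Slc2a1 (0.12), Cd8b (0.16) and RGD1565355 (0.16). With 4 libraries, such likeness mostly restates the contrast between injected and PBS tissue.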

How the data were processed

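Messenger RNA of rat synovium was measured in 4 libraries by sequencing on a BGISEQ-500, per the labels' protocols (oligo-dT capture, random primers, dUTP in the second strand). The authors deposited TPM for 17899 genes, per the file headers, and each column sums to 1000000. HISAT2 2.0.4 and the build Rnor_6.0 are named in the submitters' processing notes with no role or order; for the counter, the annotation, the use of strand and any removal of human reads, the entry is: not given in the sources used here. Whether reads of human cells were counted in conserved rat genes, which would raise values in libraries holding such cells, was not tested. The injected libraries received human cells, and the labels do not say what the word mix in the PBS titles means. Depth is therefore unknown, and a rise of abundant genes lowers the share of all others.

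Values were taken as log2(TPM + 1), and the 13371 genes reaching 1 TPM in 2 or more libraries entered a limma model (version 3.58.1, R 4.3.3, robust eBayes with trend), injected (n = 2) against PBS (n = 2), Benjamini-Hochberg adjusted over all genes, with 2 residual degrees of freedom; SyMSC against AdMSC came from a fit with 3 groups. The script was tested on simulated data. Alternatives were RLE and upper-quartile scaling, other filters, a pseudocount of 0.1, the title pair as a block, 3 groups, and each library left out. The members and lists were chosen with earlier results of these data known. Genes named from a list were taken from the up to 4 called with the largest change, and not every one of these is named. Lpl, Cd36, Cd44, Abca1, Abcg1, Mitf, Pnpla3 and Dcstamp were chosen after their values were seen. So were Nfatc1, Acp5, Adgre1, Adam10, Adam17, S100a8, Camp, Ngp, G0s2, Dgat2, Plin1 and Cidec, and the ratios between gene pairs. Promoter sequences are from RefSeq (GRCr8), matched by symbol and gene ID, and only the 250 bases before a start were searched.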

Additional observations from a re-analysis of the deposited data

Results flagged for a closer look

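None of the 10 members had opposite directions in the title pairs. Among the other genes named by rule, 4 genes of red blood cells moved in opposite directions, as log2 ratios of TPM + 1 with 1 library on each side; the difference between the pairs was not tested. Hba1, a hemoglobin gene, stood at -2.04 in AdMSC 1 against PBS 1 and at 0.54 in SyMSC 1 against PBS 2. Hbb stood at -1.96 and 0.62, Alas2, the first enzyme of heme synthesis in red cells, at -2.03 and 0.78, and Ahsp, a hemoglobin chaperone, at -2.03 and 1.73. PBS 1 held the most erythroid transcripts (21723 TPM in sum) and AdMSC 1 the fewest (5314 TPM), and their part in the members' values was not tested.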

How the results depend on the processing

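For injected against PBS, 11 alternatives were run; the members were chosen with this contrast known, so their ranges are a description. Spp1 ranged from 5.0 to 5.64 and Plin2 from 2.62 to 3.40 in log2 change. The count of all genes called ranged from 4590 (without SyMSC 1) to 6783 (RLE scaling). With the title pair as a block 6590 genes were called; the shared title word does not show that libraries were paired, and the correlation of deviations within a title pair was 0.117. Of the genes of other lists named in the results, Lpl, Cd36, Fabp4, Plin4, Pnpla3 and Lipe lost their call under at least 1 alternative, each with its direction kept. The same held for Itgax, Apobr, Adam10, S100a8, S100a9, Cxcr2 and Il1r2. In the pairs, a ratio of 1.5 in place of 2 gave 4558 (Ad pair), 4968 (Sy pair), 760 (SyMSC 1 against AdMSC 1) and 613 genes (PBS 2 against PBS 1), and 2 members between the injected libraries, Spp1 and Plin2. A ratio of 3 gave 1160, 1599, 56 and 108 genes, and 6 members in the Ad pair. No gene was called between the cell sources under any of the 5 alternative settings with a test, and without either PBS library that fit has no residual degrees of freedom. TPM gives no depth, so the precision of low genes such as Olr1 is unknown.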
